A study of Mus musculus with 10 samples.

Results

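The Hox cluster genes are the mouse homeobox genes named by cluster (a, b, c or d) and by paralog group. They were chosen by symbol alone, as every gene whose name in the platform annotation is Hox followed by 1 of the 4 cluster letters and a number. This rule used no measured value, although the family itself was taken up with earlier results of these data known. Of the 39 genes of this kind in the mouse RefSeq annotation, 31 were read from a probe-set of their own in the Affymetrix MOE430A table used here, among 12393 genes named in all. Cluster a, on chromosome 6, had 9 members, cluster b, on chromosome 11, had 9, cluster c, on chromosome 15, had 6, and cluster d, on chromosome 2, had 7. The rest are not analysed here.

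The study sorted 5 cell populations from dermis of postnatal day 4 (P4) backskin and measured each on 2 arrays, to compare the dermal papilla of the hair follicle with its neighbors. All mice were double transgenic, with a histone-GFP fusion under the keratin 14 promoter (K14-H2BGFP) and RFP under a fragment of the human Lef1 promoter (Lef1-RFP), so every population came from the same genotype and age, and each preparation pooled backskins of several mice. Matrix (Mx) cells, the dividing keratinocytes of the hair bulb, were GFP-low and RFP-negative, and outer root sheath (ORS) cells, its basal epithelial layer, were GFP-high and RFP-negative. Dermal papilla (DP) cells were RFP-high and the dermal fraction (DF) had neither reporter. Cells with CD34, CD45 or CD117 had been removed from both. DF is therefore whatever dermis remained after that depletion and not a single cell type. Melanocytes (Mc), the pigment cells of the follicle, were RFP-high and CD117-positive. In the comparisons below, mesenchyme is the mean of DF and DP, and epithelium the mean of Mx and ORS.

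Hox proteins are transcription factors that bind DNA through a homeodomain and give cells a position along the head-to-tail axis. Genes at one end of a cluster act toward the head and those at the other end toward the tail, and fibroblasts keep the pattern of their body site after birth. Most trunk fibroblasts descend from mesoderm, whereas melanocytes come from the neural crest and keratinocytes from ectoderm. In the follicle, Hoxc13 is also known for driving genes of the hair shaft.

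Values are array signals on a linear scale, as the authors' MAS 5.0 software gave them. Each gene was read at its brightest probe-set, and a member was called on in a population where that probe-set reached 200 in both arrays. Signals of different probe-sets are not on a common scale, so the bound sorts genes roughly and does not rank them. Differences were tested with limma on log2(signal + 50), over all probe-sets with no filter on signal, and a difference was called where the Benjamini-Hochberg adjusted p was under 0.05. A difference on this scale comes out smaller than the plain ratio where signals are low. Fewer cells carrying an mRNA and less of it in each cell cannot be told apart in sorted pools. The median signal of an array ran from 49.9 to 90.9, and 5018 to 6650 probe-sets reached 200. The arrays came from 2 chip lots, 6 from one and 4 from the other, with both Mx arrays in the first, and 2 arrays, the second of DP and of Mc, were run with another fluidics protocol.

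The labels were checked against marker genes. All 11 pigment cell markers measured were on in Mc, all 6 dermal papilla markers in DP, all 7 hair shaft and inner root sheath markers in Mx and all 6 basal keratinocyte markers in ORS. Populations also carried markers of their neighbors. In DP, 9 of 11 pigment markers were on, with a summed signal of 28566 and 17747, against 42927 and 44252 in Mc and 14356 and 4545 in DF. All 7 hair shaft and inner root sheath markers were also on in DP, with a sum of 3465 and 3733 against 29765 and 26511 in Mx. Some of the 7 were on in every other population too. These were 4 in ORS (sums of 3811 and 6636), 3 in DF (1329 and 7895) and 3 in Mc (1505 and 1546). All 11 fibroblast markers were on in DP. In DF, 10 of 11 fibroblast markers were on, together with 5 of 5 markers of pericytes and smooth muscle, 3 of 5 of endothelium and 2 of 2 of Schwann cells.

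Few Hox genes were on in any population, and the sets differed. Of the 31 members, 2 were on in Mx (Hoxb2 and Hoxc13), against 25% of all genes. In ORS 4 were on (Hoxa5, Hoxb2, Hoxc8 and Hoxc13), against 29.6% of all genes. In DF 5 were on (Hoxb2, Hoxc6, Hoxc8, Hoxd8 and Hoxd9), against 31.4%, and in DP 5 (Hoxa9, Hoxc6, Hoxc8, Hoxc9 and Hoxd8), against 31.6%. In Mc no Hox gene was on, whereas 27.1% of all genes were. In at least 1 population 9 members were on, against 42.4% of all genes, and no member was on in all 5. Hoxb2 was the only one on among the 6 anterior members (groups 1 to 3). The others lay in the central groups 4 to 8 (Hoxa5, Hoxc6, Hoxc8 and Hoxd8) or the posterior groups 9 to 13 (Hoxa9, Hoxc9, Hoxc13 and Hoxd9). Read from 1 array alone, DP had 7 members on with either array, adding Hoxa5 and Hoxc4 from its first or Hoxb2 and Hoxa10 from its second. Mx had 4 without its second array (Hoxb6 and Hoxd8 added), ORS 5 without its second (Hoxb6) and DF 6 without its second (Hoxa9).

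**Figure D1:**
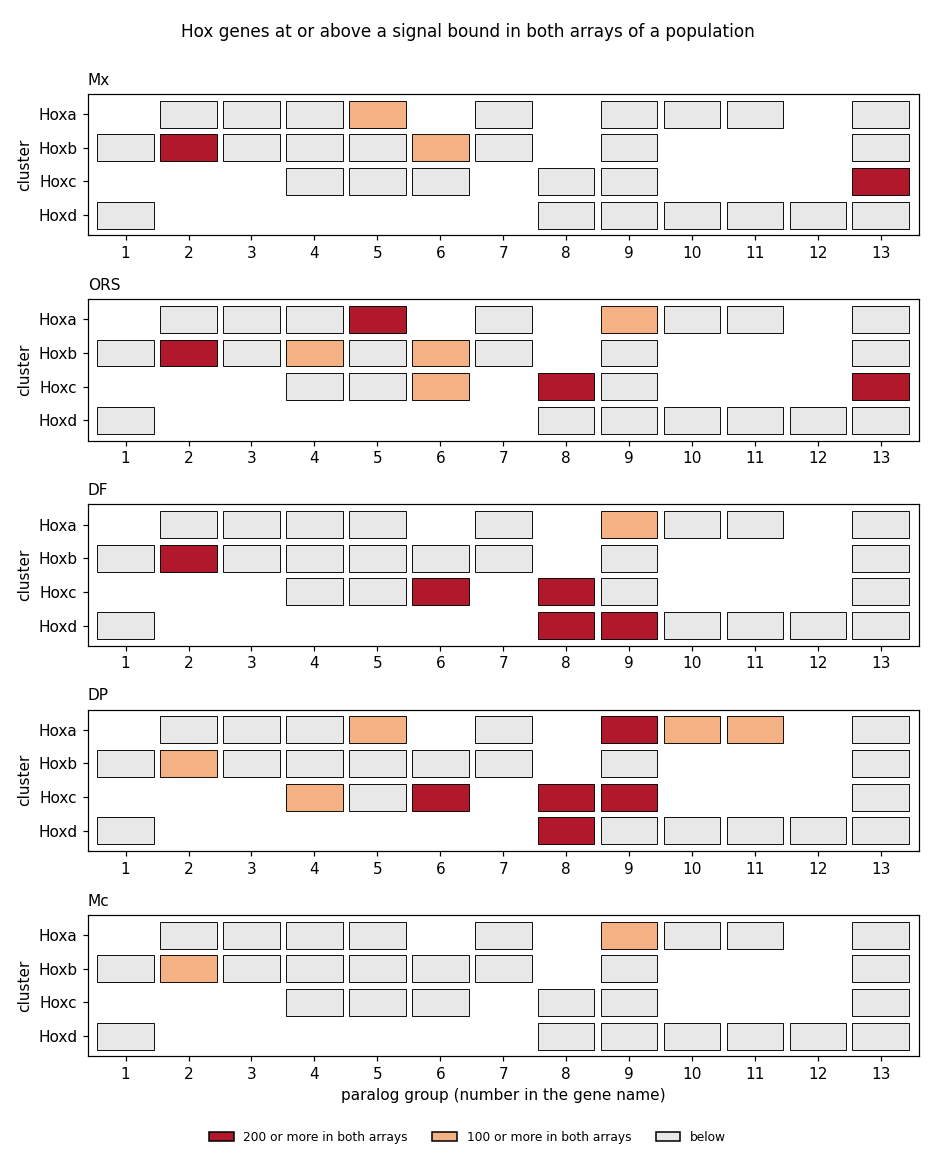
Map of the Hox clusters in the 5 populations. Rows are clusters a to d, columns paralog groups 1 to 13, dark red boxes mark genes with a signal of 200 or more in both arrays, orange boxes 100 or more, and gray boxes less. The dark red boxes number 2 in Mx, 4 in ORS, 5 each in DF and DP, and 0 in Mc.

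Hoxc8, a gene of the thoracic axis, was on in ORS, DF and DP. Its signals were 1966 and 1625 in DP, 831.5 and 581 in ORS, 382 and 344 in DF, 72.6 and 98.7 in Mx, and 23.1 and 23.7 in Mc. No population overlapped another, in the order DP, ORS, DF, Mx and Mc. Hoxc13 ran in another order, highest in Mx with 485.5 and 783, then ORS with 236 and 315, DF with 50.4 and 166, DP with 15.6 and 53.5, and Mc with 6.0 and 13. Its Mx arrays lay above all others and its Mc arrays below all others, and the DF and DP arrays overlapped.

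Hoxc6, another gene of the thoracic axis, had 313 and 334 in DF, 266 and 297 in DP, 131 and 153 in ORS, 90.3 and 80.3 in Mx, and 66.6 and 75.9 in Mc. Both mesenchymal populations lay above the other 3. Hoxc9, on the posterior side of Hoxc8, had 233 and 276 in DP, 97.4 and 126 in DF, and at most 25.9 on any array of Mx, ORS and Mc. Its 4 dermal arrays lay above the other 6. In cluster d, Hoxd8 had 408 and 504 in DF, 216 and 268 in DP, 227 and 77.6 in Mx, 113 and 53.1 in ORS, and 21.6 and 32.3 in Mc. Its Mx arrays disagreed by far more than its dermal arrays did. Hoxd9 had 269.5 and 251 in DF, 91 and 127.5 in DP, and at most 36.8 on any array of Mx, ORS and Mc.

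In clusters a and b, 3 members were on. Hoxa5, a gene of the neck and upper thoracic axis, had 363 and 355.5 in ORS, 206 and 198 in DP, 187 and 148 in Mx, 80.2 and 87.9 in DF, and 14 and 26.7 in Mc. Hoxa9, known for its part in blood progenitors, had 283 and 186 in DF, 249 and 353 in DP, 133 and 143.5 in ORS, 120 and 99.3 in Mx, and 101 and 137 in Mc. The ranges of Hoxa9 in DF and DP overlapped, as did those in ORS and Mc. Its other probe-set separated the populations more widely, with 794.5 and 772 in DP, 194 and 173 in DF, and 3.2 and 4.5 in Mc. Hoxb2, a gene of the hindbrain, was the flattest of the 9, with 356 and 337 in ORS, 314 and 296.5 in Mx, 207 and 256 in DF, 150.5 and 202 in DP, and 124 and 178 in Mc.

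**Figure D2:**
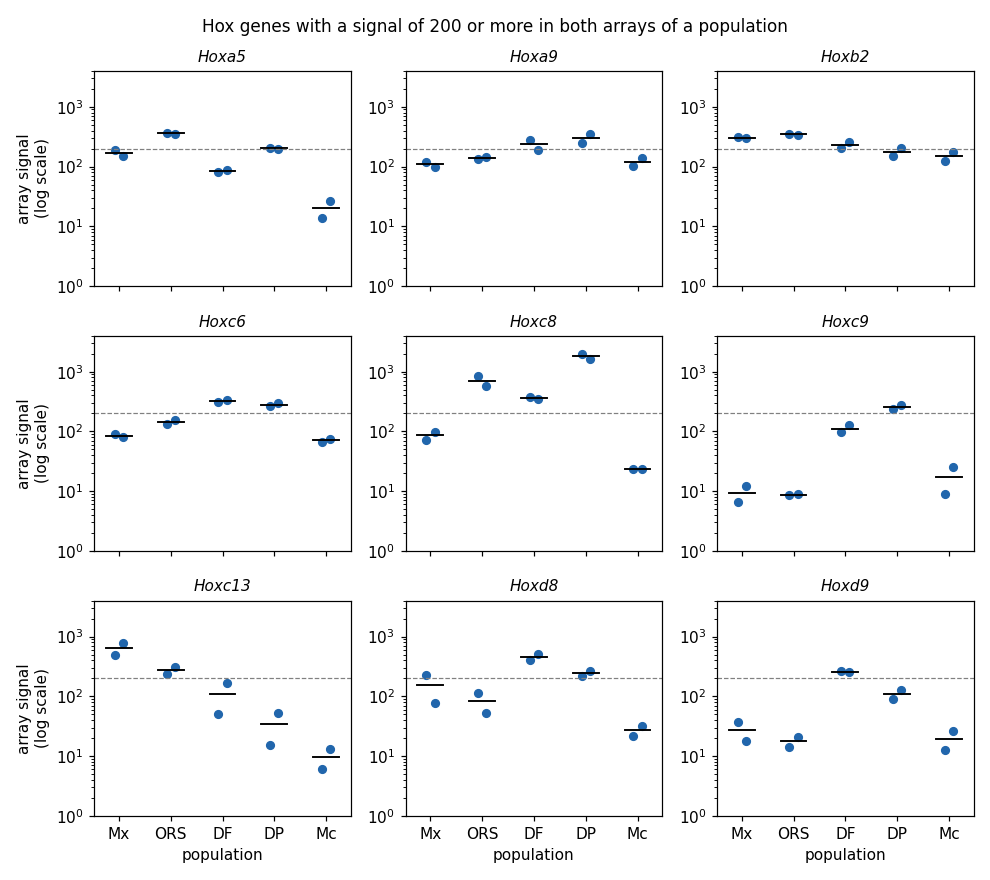
Array signals of the 9 Hox genes that were on in at least 1 population. Each panel is 1 gene, the y axis is the MAS 5.0 signal on a log scale, points are the 2 arrays of a population, short bars their mean and the dashed line the bound of 200. Hoxc8 spans from 23.1 in Mc to 1966 in DP, and Hoxb2 stays between 124 and 356.

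In Mc, 26 of the 31 members were under 50 on both arrays, where 35.5% of all genes were. The count was 21 in Mx (39.5% of all genes), 19 in ORS (35.4%), 15 in DF (27.5%) and 13 in DP (28.1%). The 2 members that reached 100 on both Mc arrays were Hoxb2 and Hoxa9.

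Against trunk mesenchyme, melanocytes were lower in 13 Hox genes and higher in none, by limma, where 18% of all genes were lower and 6.5% higher. The median difference of the 31 members was -0.34 on the log2 scale, against -0.11 over all genes. At an unadjusted p under 0.05, 16 members passed, all of them lower in Mc. The share of all genes at that threshold was not counted, so no excess is read from it. The largest difference was that of Hoxc8, lower by 3.57 ± 0.157 (SE) on the log2 scale, with an adjusted p of 9.63e-06. Within the lots its difference was -3.67 and -3.46. Hoxd8 fell by 2.32 ± 0.313 (adjusted p = 0.00161) and Hoxc4, with 2.5 and 4.2 in Mc against 94.6 and 117 in DF and 312.5 and 187 in DP, fell by 2.00 ± 0.166 (adjusted p = 0.000153). Hoxc9 fell by 1.73, Hoxd9 by 1.68, Hoxc6 by 1.54, Hoxa10 by 1.45 and Hoxa5 by 1.39, with adjusted p values from 3.33e-05 to 0.00233. The other 5 differed by less than 1 on the log2(signal + 50) scale and were Hoxb3 (-0.99), Hoxa9 (-0.89), Hoxd10 (-0.71), Hoxa2 (-0.48) and Hoxa3 (-0.43).

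All 13 had the same sign within both chip lots. With the lot as a block 14 members were called. The call for Hoxa9 was lost without Mc replicate 1 (adjusted p = 0.104), and its other probe-set fell by 3.03 (adjusted p = 3.78e-05). The calls for Hoxa2, Hoxa3 and Hoxb3 were lost without either Mc array in turn and without DP replicate 2, with adjusted p values reaching 0.146, 0.13 and 0.118, and 9 members were left without Mc replicate 1. Without DF replicate 2 the calls for Hoxa3 and Hoxb3 were also lost, without DF replicate 1 those for Hoxa2 and Hoxa3, and without DP replicate 1 that for Hoxa3. Hoxa2, Hoxa3 and Hoxd10 stayed under 100 on all 10 arrays. With quantile normalization the median of all genes moved from -0.11 to 0.035 and 11 Hox genes were called, all lower.

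By cluster, 4 of 6 members of cluster c were lower in Mc, 5 of 9 of cluster a, 3 of 7 of cluster d and 1 of 9 of cluster b. Hoxb4 was not called at the probe-set read (-0.06), whereas its other probe-set was lower by 0.36 (adjusted p = 0.0409). Hoxb2, on in DF, differed by -0.34 (95% interval -0.68 to 0.004, adjusted p = 0.155). With the fluidics protocol as a block, an alternative chosen after the data were seen, Hoxb2 also passed, at -0.43 (adjusted p = 0.0311). In 21 of 31 members both Mc arrays lay below all DF and DP arrays, against 29.2% of all genes, and in none did they lie above, against 11.8%. Among the 21, Hoxa2, Hoxa3, Hoxa4, Hoxa7, Hoxa13, Hoxb5, Hoxb7, Hoxd1 and Hoxd10 stayed under 100 on all 10 arrays. In 11 members the Mc arrays lay below the other 8 arrays, against 9.55% of all genes. Those 11 were Hoxa2, Hoxa5, Hoxa7, Hoxb3, Hoxb5, Hoxb6, Hoxc6, Hoxc8, Hoxc13, Hoxd8 and Hoxd10. Hoxa7 was among them by a narrow margin, with 4.8 in Mc against 4.9 in Mx. Hoxc6 was among them only at the probe-set read. At another of its probe-sets Mc had 73.5 and 103 against 74.1 and 82.0 in Mx, so the arrays overlapped. That probe-set was still lower in Mc than in mesenchyme, by 1.22 (adjusted p = 0.000322).

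Taken against each dermal population, and with Mc shared by both comparisons, 12 members were lower in Mc than in DP (13% of all genes, and 4.86% higher) and 10 were lower than in DF (16.7%, and 6.23% higher). No member was higher in either. Hoxc8 was lower by 4.65 ± 0.181 against DP (adjusted p = 5.4e-06) and by 2.49 ± 0.181 against DF (adjusted p = 8.47e-05). Its Mc signals of 23.1 and 23.7 lay under the array medians of 60.1 and 68.1, and no plain ratio to them is given. Hoxa10, a gene of the lumbar axis, was lower by 2.18 against DP (adjusted p = 0.000953), where it had 144.5 and 308 against 7.2 and 9.2 in Mc. Hoxc9 was lower by 2.18 against DP and 1.27 against DF, and Hoxd9 by 1.20 against DP and 2.17 against DF. Hoxd10 passed against DF alone (-1.32, adjusted p = 8.32e-05) and Hoxc5, under 27 on every array, against DP alone (-0.38, adjusted p = 0.0435). The count against DP was 7 without DP replicate 2 and 7 without Mc replicate 1. Both left-out arrays cost the calls for Hoxd8 (adjusted p up to 0.08) and Hoxa9 (up to 0.0967), and Hoxc5 was lost without either array of ORS, DP or Mc (up to 0.218) and with the lot (0.0622) or the fluidics protocol (0.0569) as a block. Hoxa3 was lost against DP without either array of DP or Mc (up to 0.0814), and Hoxa2 without DP replicate 2 or either Mc array (up to 0.146). Against DF, Hoxa9 (-0.74, adjusted p = 0.043) was lost without either array of Mx, ORS or Mc, without DF replicate 1 (up to 0.222) and with the lot as a block (0.0609), and Hoxb3 (-1.18, adjusted p = 0.0182) without either array of DF or Mc (up to 0.0927).

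The fibroblast list was also far lower in Mc, with a summed signal of 5584 and 4002 over its 11 genes, against 44421 and 39138 in DF and 26898 and 27752 in DP. In Mc 4 of the 11 were on, Vim (1747 and 1469), Col3a1 (1280 and 921), Col1a2 (1131 and 819) and Dcn (279 and 216), while Pdgfra was at 14 and 0.9 and Twist1 at 10.3 and 11.2. Pigment markers were on in DP and DF, as given above. Their part in the Hox differences was not tested.

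Melanocytes were also lower than epithelium, in 11 members and none higher, where 15.7% of all genes were lower and 13.3% higher. Cluster b gave 5 of these, Hoxb2, Hoxb3, Hoxb4, Hoxb5 and Hoxb6. Hoxc13 was lower by 2.97 ± 0.339 (adjusted p = 0.000622), Hoxc8 by 2.11, Hoxa5 by 2.09, Hoxb6 by 1.77 and Hoxb3 by 1.43. Hoxb3 had 58.5 and 140 in Mx and 96.0 and 125 in ORS, against 8.5 and 3.8 in Mc, and no array of Mc came near the others. In 13 members both Mc arrays lay below the Mx and ORS arrays, against 20.3% of all genes. Hoxc6 is 1 of these, but at another of its probe-sets the arrays overlapped. There Mc differed from epithelium by -0.04 and did not pass (adjusted p = 0.866). Calls for Hoxc6 (-0.41), Hoxb4 (-0.71) and Hoxd8 (-1.02) were lost without either Mc array, with adjusted p values up to 0.0988, 0.111 and 0.205. That for Hoxd8 was also lost without ORS replicate 1 and without any 1 of the DF and DP arrays, and with the lot (adjusted p = 0.0756) or the fluidics protocol (0.0912) as a block.

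The 2 dermal populations differed from each other. DP was higher than DF in 5 Hox genes, where 4.47% of all genes were higher, and lower in 2, where 6.32% were. Hoxc8 was higher by 2.15 ± 0.181 (adjusted p = 0.000461), with 2.22 and 2.09 within the lots. Hoxa10 was higher by 1.46 ± 0.245 (adjusted p = 0.00986), Hoxc4 by 0.92 (adjusted p = 0.0243), Hoxa5 by 0.91 (adjusted p = 0.00401) and Hoxc9 by 0.91 (adjusted p = 0.00982). All 5 lie in clusters a and c. The 2 lower genes were neighbors in cluster d. Hoxd10, a gene of the lumbar axis and limb, was lower in DP by 1.23 ± 0.0958 (adjusted p = 0.00034), and it had 76.9 and 79.2 in DF and at most 9.7 on the other 8 arrays. Hoxd9 was lower by 0.97 (adjusted p = 0.0125). Hoxd8, beside them, differed by -0.79 and did not pass (95% interval -1.63 to 0.049), and Hoxc6 differed by -0.17 (95% interval -0.42 to 0.076).

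Between DP and DF, Hoxc8 kept its call under all 21 alternatives and Hoxd10 under the 19 that tested it, since it passed neither signal filter. Each of the other 5 lost its call under at least 1. The count fell to 3 without DF replicate 1 and to 4 without DF replicate 2. Hoxd9, Hoxc4 and Hoxa10 were lost without either DF array, Hoxd9 and Hoxc4 also without DP replicate 1, and Hoxc9 without DF replicate 1 or DP replicate 2, with adjusted p values up to 0.0815, 0.13, 0.0592 and 0.0662. The second probe-set of Hoxa9 was higher in DP by 1.84 (adjusted p = 0.00204), whereas the brightest one differed by 0.31 and did not pass. Markers of pericytes and smooth muscle summed to 20129 and 21620 in DF against 2991 and 5226 in DP and those of endothelium to 3438 and 2482 against 235 and 215. Of 5 blood markers 1 was on in DF, the erythroid heme gene Alas2, with 3462 and 4266 against 4.5 and 6.5 in DP, and the others stayed under 80 in both. Basal keratinocyte markers summed to 1748 and 2587 in DF, with 3 of 6 on, against 680 and 837 in DP, with 1 on. Those of hair shaft and inner root sheath summed to 1329 and 7895 in DF against 3465 and 3733 in DP. Whether cells with any of these markers carried any of the Hox signal of DF was not tested.

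Promoters are shown for 3 members with different patterns: Hoxc4, highest in DP, Hoxd10, measured above 10 in DF alone, and Hoxa5, highest in ORS and called in all 7 comparisons. Each line gives the 250 bases before the RefSeq transcription start, 5′ to 3′, in build GRCm38.p6, and the capitals mark the letters AGGTCA found on the reverse strand, a nuclear receptor element shared by retinoic acid receptors, which act upstream of Hox genes. The Hoxa5 window does not hold these letters. The windows are chr15:103034145-103034394 on the plus strand for Hoxc4, chr2:74691641-74691890 on the plus strand for Hoxd10 and chr6:52204588-52204837 on the minus strand for Hoxa5.
Hoxc4: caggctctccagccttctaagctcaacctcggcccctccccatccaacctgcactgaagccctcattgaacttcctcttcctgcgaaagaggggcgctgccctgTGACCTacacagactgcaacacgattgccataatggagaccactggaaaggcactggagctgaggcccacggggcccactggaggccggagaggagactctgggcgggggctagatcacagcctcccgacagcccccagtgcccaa
Hoxd10: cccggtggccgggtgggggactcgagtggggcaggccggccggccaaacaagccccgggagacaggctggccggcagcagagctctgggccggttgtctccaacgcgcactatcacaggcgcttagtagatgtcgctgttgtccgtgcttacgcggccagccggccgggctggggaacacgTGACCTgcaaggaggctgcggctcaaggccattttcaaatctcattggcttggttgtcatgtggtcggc
Hoxa5: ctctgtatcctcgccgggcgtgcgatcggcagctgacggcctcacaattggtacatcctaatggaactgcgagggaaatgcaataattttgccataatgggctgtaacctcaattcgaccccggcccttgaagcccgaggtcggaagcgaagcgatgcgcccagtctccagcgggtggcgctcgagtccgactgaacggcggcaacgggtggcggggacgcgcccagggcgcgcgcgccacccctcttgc

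RefSeq promoters were at hand for 18 of the 31 members, 20 in all, and not for Hoxc8 or Hoxc13. AGGTCA, searched on both strands, stood in 4 of these 20, those of Hoxb4, Hoxc4, Hoxd8 and Hoxd10, against 14% of all 32851 mouse promoters. TGATTNAT, a joint element of Hox and Pbx proteins, searched on both strands, stood in 2 of 20 (Hoxa2 and Hoxd11) against 2.82%, and TATAAA on the coding strand in 1 of 20 (Hoxd13) against 7.59%. The Hox promoters held a median of 13 CG dinucleotides per 250 bases, against 6 over all promoters, with 28 in that of Hoxa5, 20 in Hoxd10 and 8 in Hoxc4. Genes of unlike pattern shared the same letters, Hoxc4 and Hoxd10 among them.

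Between epithelium and mesenchyme, 18 members differed, where 44.4% of all genes did. Epithelium was lower in 12, where 29.8% of all genes were lower, and higher in 6, where 14.7% were. The clusters split unevenly. Cluster b had 4 higher and 1 lower of 9, cluster d 0 higher and 4 lower of 7, cluster c 1 higher and 4 lower of 6, and cluster a 1 higher and 3 lower of 9. With quantile normalization the split was 8 higher and 9 lower, with Hoxa2 and Hoxb3 added to the higher genes.

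The higher genes of cluster b were Hoxb2, Hoxb4, Hoxb5 and Hoxb6. Hoxb6, a gene of the thoracic axis, had 266 and 185 in Mx and 299 and 109 in ORS, against 71.6 and 117 in DF, 36.5 and 50.8 in DP and 21.4 and 26.8 in Mc. It was higher in epithelium by 1.14 ± 0.246 (adjusted p = 0.00858), although the second ORS array lay within the DF range. Hoxb5 had 35.0 and 46.3 in Mx, 42.4 and 32.0 in ORS and at most 8.6 on the other 6 arrays. It was higher by 0.66 (adjusted p = 0.000412), and Hoxb4, with 84.3 and 143 in Mx and 121 and 105 in ORS against 41.8 to 64.9 in dermis, by 0.65 (adjusted p = 0.00742). Hoxb2 was higher by 0.58 (adjusted p = 0.00674). Outside cluster b, Hoxc13 was higher by 2.08 ± 0.277 (adjusted p = 0.000857) and Hoxa5 by 0.70 (adjusted p = 0.000708).

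Among the 12 genes lower in epithelium, Hoxc9 fell by 1.91, Hoxc4 by 1.88, Hoxd9 by 1.62, Hoxc8 by 1.46, Hoxa10 by 1.45, Hoxd8 by 1.29 and Hoxc6 by 1.13, with adjusted p values from 1.52e-05 to 0.00564. Hoxc4 had at most 17.2 on the Mx and ORS arrays. The other 5 were Hoxa9 (-0.85), Hoxd10 (-0.58), Hoxb7 (-0.44), Hoxa13 (-0.31) and Hoxd1 (-0.25). The calls for Hoxa13 and Hoxd1 were lost without any of 8 and 9 of the 10 arrays, with adjusted p values up to 0.139 and 0.122, and all of the 5 but Hoxa9 stayed under 100 on every array. In 4 members all Mx and ORS arrays lay above all DF and DP arrays (Hoxb2, Hoxb4, Hoxb5 and Hoxc13), against 10.3% of all genes, and in 9 they lay below, against 24.4%. The other probe-set of Hoxb4 overlapped, with 56.0 and 75.8 in Mx and 69.3 and 69.0 in ORS against 56.2 and 72.9 in DF. Lot 2 holds no Mx array, so within-lot values exist for lot 1, where all 18 kept their sign.

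**Figure D3:**
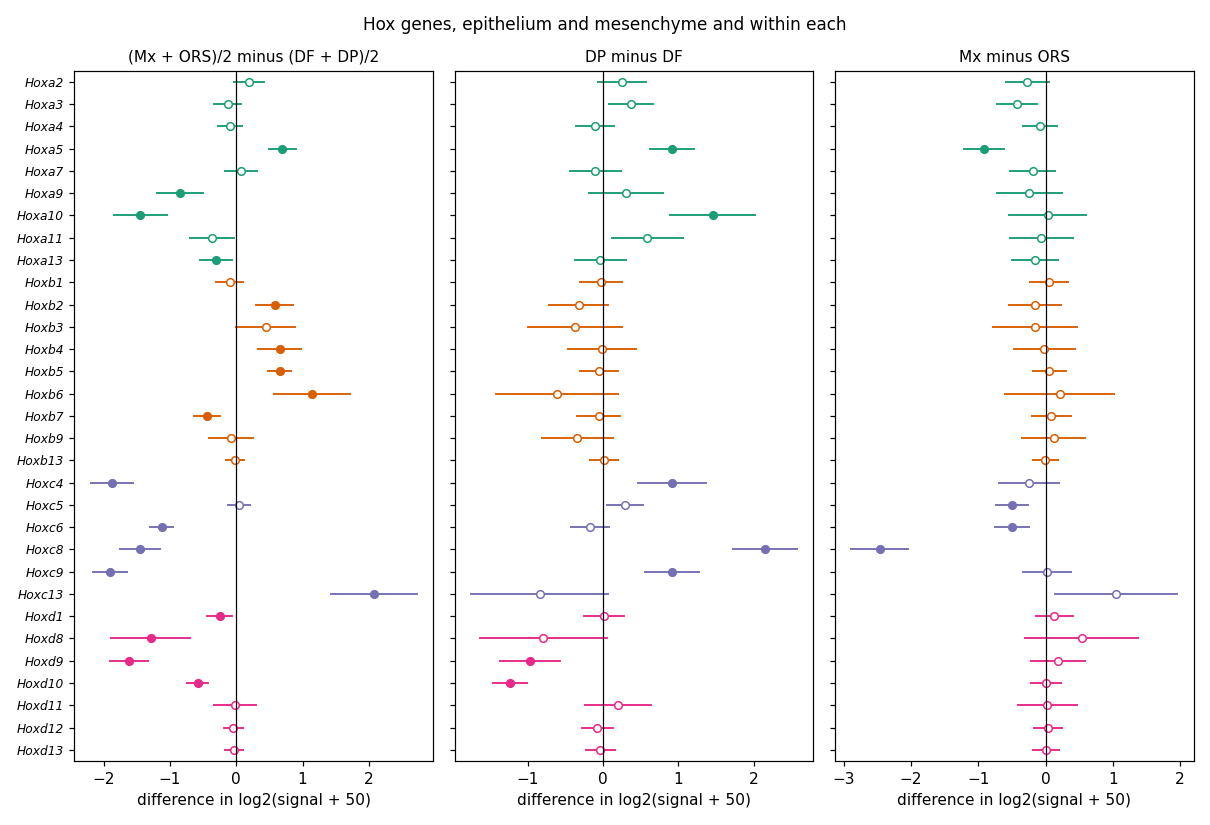
Differences of each Hox gene between epithelium and mesenchyme (left), DP and DF (middle) and Mx and ORS (right). The x axis is the difference in log2(signal + 50), points are estimates with 95% intervals, filled where the adjusted p was under 0.05, and colors mark clusters a (green), b (orange), c (violet) and d (pink). Hoxc13 at 2.08 and Hoxc9 at -1.91 are the ends of the left panel, and Hoxc8 stands apart in the middle (2.15) and on the right (-2.47).

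Within the epithelium, Mx was lower than ORS in 4 Hox genes and higher in none, where 7.15% of all genes were lower and 1.86% higher. Hoxc8 was lower in Mx by 2.47 ± 0.181 (adjusted p = 0.000411), and its mean signal was 8.25 times higher in ORS. Hoxa5 was lower by 0.92 (adjusted p = 0.00506), and Hoxc6 and Hoxc5 by 0.50 each (adjusted p = 0.03 and 0.0268). The call for Hoxc6 was lost under 11 of 21 alternatives, among them quantile normalization (-0.26, adjusted p = 0.233). Hoxc6 was lost without any 1 of the 4 epithelial arrays (adjusted p up to 0.172), Hoxc5 without Mx replicate 1 or either ORS array (up to 0.142) or with the lot as a block (0.062), and the count was 2 in each of these 3 cases. Hoxc13 was 2.3 times higher in Mx by mean signal, with arrays that did not overlap, and its difference of 1.05 did not pass (95% interval 0.14 to 1.96, adjusted p = 0.177). It passed when only probe-sets that reached 200 in both arrays of a population were tested (adjusted p = 0.0481), and with a bound of 100 (adjusted p = 0.0491). Hoxc13 entered those filters through Mx and ORS, where it was high, so neither pass supports the difference. With 1 array left out, the difference ran from 0.728 to 1.365.

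Values of other lists stood beside these results. In ORS, 3 of 5 markers of pericytes and smooth muscle were on, with a sum of 3557 and 4651 against 343 and 367 in Mx, among them Acta2 at 1938 and 2614, while Rgs5 was at 32.2 and 39.7 and Myh11 at 17.6 and 32.7. Of the 11 fibroblast genes 5 were on in ORS, Dcn (1766 and 890), Col1a2 (609 and 734), Col3a1 (371 and 650.5), Col5a1 (402 and 377) and Vim (246 and 211.5), while Pdgfra was at 3.2 and 2.8 and Twist1 at 5.9 and 13. In Mx 3 were on, Dcn (4725 and 3052), Col1a2 (319 and 481) and Col3a1 (427 and 602). The 11 genes summed to 6017 and 4805 in Mx, above the 3763 and 3390 in ORS. That order rests on Dcn alone, which was higher in Mx than in DF (1326 and 1914). Beside Hoxc13, the hair keratin gene Krt35, which Hoxc13 is known to activate, had 6239 and 5596 in Mx, 160 and 959 in ORS, 398 and 2338 in DF, 406 and 706 in DP, and 129 and 132 in Mc. The array with the higher Krt35 had the higher Hoxc13 in ORS, DF, DP and Mc, and the lower Hoxc13 in Mx. In ORS, DF, DP and Mc that array was always the second, from the other chip lot. The shared direction therefore cannot be told apart from the lot, and the Krt35 signals in Mc were nearly equal. The part that cells with these markers had in the Hox signals was not tested. Of the 3 measured genes downstream of Hoxc13, only Krt35 was called between Mx and ORS (3.69, adjusted p = 0.0451). Krt31, another hair keratin gene, differed by 2.86 (adjusted p = 0.158), and Foxn1, a regulator of hair keratinization, by 0.63 (adjusted p = 0.102).

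The other 22 members were on nowhere. Hoxa10, Hoxa11, Hoxb3, Hoxb4, Hoxb6 and Hoxc4 reached 100 on some array. Hoxa11, a gene of the lumbar axis and limb, had 102 and 103 in DP and 32.1 to 77.1 on the other 8 arrays, and it was called in no comparison. The remaining 16 stayed under 100 on all arrays, with highest signals from 1.9 (Hoxb13) to 79.2 (Hoxd10), and 11 of them stayed under 50. These 16 include the most posterior members of clusters a, b and d, Hoxa13, Hoxb13 and Hoxd13, and the most anterior of b and d, Hoxb1 and Hoxd1. Detection calls were not used here, and a low signal is not taken as absence.

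Partners and regulators of the Hox genes were read from lists of genes with known roles. TALE homeodomain proteins (the Pbx, Meis and Pknox families) bind DNA together with Hox proteins. Of 8 TALE genes measured, 3 were lower in Mc than in mesenchyme and none higher, where 18% of all genes were lower and 6.5% higher. Meis1 had 410 and 438 in DP, 53.9 and 55.3 in ORS, 30.6 and 32.3 in DF, 16.1 and 25.1 in Mx and 2.0 and 7.8 in Mc. It was lower in Mc by 1.84 ± 0.0897 (adjusted p = 1.45e-05) and higher in DP than in DF by 2.54 ± 0.104 (adjusted p = 1.74e-05). Among the populations DP was highest for Meis1 and for Hoxc8 alike, and Mc lowest. Meis2 had 152 and 191 in DP, 78.1 and 102 in DF, 3.2 and 42.8 in Mc and at most 25.4 in epithelium. It was lower in Mc by 1.32 (adjusted p = 0.00569), and Pknox1 by 0.45 (adjusted p = 0.0476).

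Among 10 measured genes that act upstream of Hox genes, 1 was higher and 1 lower in Mc than in mesenchyme, both retinoic acid receptors. Of all genes, 6.5% were higher and 18% lower. Rarb had 320 and 368 in Mc, 141 and 121 in DP, 75.0 and 52.1 in DF and at most 35.0 in epithelium, and it was higher in Mc by 1.46 ± 0.133 (adjusted p = 0.000241). Rarg had 112.5 and 129 in Mc and 262 to 587 on the other 8 arrays, and it was lower by 1.42 ± 0.237 (adjusted p = 0.00429). Both kept these calls under every alternative. The Cdx genes, which activate Hox genes in the embryo, stayed under 27 on all arrays.

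Of 13 Polycomb genes, whose proteins keep silent Hox genes repressed, 1 was higher in Mc than in mesenchyme (Rnf2, 0.77, adjusted p = 0.00716) and 1 lower (Ring1, -0.32, adjusted p = 0.0326). Of all genes, 6.5% were higher and 18% lower. Against epithelium 2 were higher and 5 lower, where 13.3% of all genes were higher and 15.7% lower. Among the lower were Ezh2 (-0.94, adjusted p = 0.00156) and Eed (-0.77, adjusted p = 0.00974), which code for subunits of the complex that methylates histones. Of the other regulators, Hdac1, a histone deacetylase, was lower in Mc than in mesenchyme by 0.73 (adjusted p = 0.00648), and Gmnn, whose protein geminin binds Hox proteins and limits DNA replication, was higher in epithelium than in mesenchyme by 1.83 (adjusted p = 4.94e-05).

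**Figure D4:**
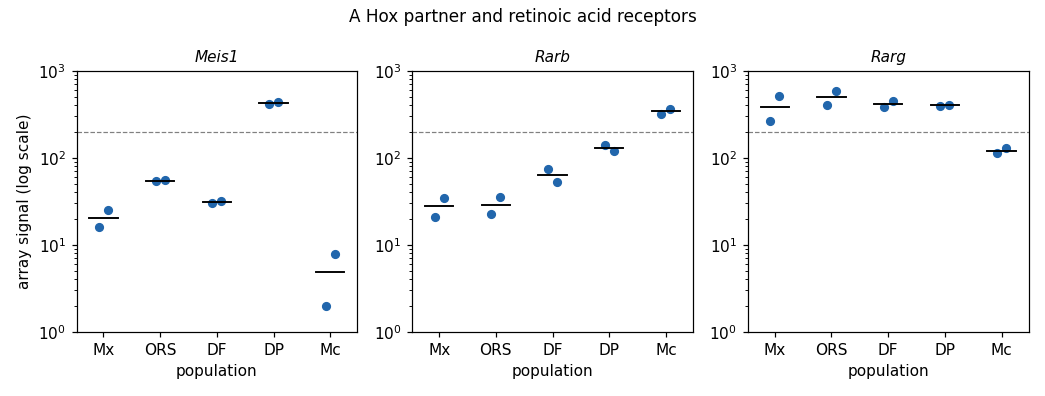
Array signals of the Hox partner Meis1 and the retinoic acid receptors Rarb and Rarg. The y axis is the MAS 5.0 signal on a log scale, points are the 2 arrays of a population, short bars their mean and the dashed line the bound of 200. Meis1 reaches 410 and 438 in DP alone, Rarb is highest in Mc (320 and 368) and Rarg lowest there (112.5 and 129).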

How the data were processed

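Gene expression was measured on 10 Affymetrix MOE430A arrays, 2 for each of 5 sorted populations. The deposited table holds a linear intensity, the signal that the authors computed with MAS 5.0 and scaled for each array, for 22690 probe-sets. The methods describe entirely independent duplicates from pooled backskins. The precision of each value is limited by the number of arrays, which have no depth. Leaving out 64 control probe-sets gave 22626 for testing. The platform annotation assigned 1 gene to 20380 of them, several to 691 and none to 1555.

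The test of all 22626 was limma's (version 3.58.1, under R 4.3.3), run on log2(signal + 50) with a mean for each population, no block and no filter on signal, so that no Hox gene entered only through a population where it was high. Benjamini-Hochberg adjustment covered all probe-sets of a comparison. The fit had 5 residual and 2.56 prior degrees of freedom and a median residual SD of 0.168. With 2 arrays a population no exact permutation test can reach the threshold, and the adjusted p values borrow spread across populations and probe-sets. Where a gene had several probe-sets (5 members), the one brightest on average on that scale was read. Tables and plots were made in Python 3.11.15 (numpy 2.4.6, pandas 2.3.3, matplotlib 3.10.9).

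The Hox family, the lists and the tests were chosen with earlier results of these data known. Every Hox gene that was on or called is named, and of the partner and regulator lists the 4 with the largest difference between Mc and mesenchyme, with the other called genes named after their values were seen. Alternatives were other pseudocounts (16 and 1), signal filters (200 and 100), signal bounds (100 and 400), quantile and trimmed mean (2% at each end) scaling, an intensity trend, the chip lot or replicate number as a block, a 2-fold limit, the mean over probe-sets, and each array left out in turn. The fluidics protocol as a block was added after the data were seen. Promoters are from RefSeq (GRCm38.p6). The array table names no build, so coordinates are given for promoters only. Present calls and the authors' Robust Multi-Chip values were not used here.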

Additional observations from a re-analysis of the deposited data

How the results depend on the processing

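Of 75 differences of a Hox gene called in a comparison, 50 were called under every refit that tested them (19 to 21 each). At least 1 refit lost the other 25, and 0 turned sign. The refits include both signal filters. Those lost only the call for Hoxc6 between Mx and ORS, which other refits lost too, so the 50 does not depend on them. The 2-fold limit is not a refit and is not part of these counts. A filter on signal leaves 9 Hox genes to test at 200, which by construction limits the counts. Each of the 9 entered through a population where it was high, and none was on in Mc. The counts under this filter therefore support nothing, for Mc or for the other comparisons. With the filter 8 were called for Mc against mesenchyme, 7 against DP and 6 against epithelium, 4 for DP against DF and 9 for epithelium against mesenchyme. At least 2-fold and called were 8 for Mc against mesenchyme, 9 against DP, 8 against DF and 6 against epithelium. With the same limit there were 3 for DP against DF, 1 for Mx against ORS and 9 for epithelium against mesenchyme. The share of all genes under this limit was not counted, so these counts have no background beside them. With a pseudocount of 1, DP against DF gave 3, and the calls for Hoxa5, Hoxc4, Hoxc9 and Hoxd9 were among those lost. The cause was not tested. Leaving out 1 array gave 9 to 14 for Mc against mesenchyme, 7 to 13 against DP, 8 to 11 against DF, 8 to 12 against epithelium, 3 to 8 for DP against DF, 2 to 4 for Mx against ORS and 16 to 18 for epithelium against mesenchyme. An array left alone in its population is assumed to vary like the others.

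With a bound of 100 in place of 200, 4 Hox genes were on in Mx, 8 in ORS, 10 in DP and 2 in Mc, and with 400 there was 1 each in Mx, ORS, DF and DP. Read from 1 array, 2 to 4 were on in Mx, 4 to 5 in ORS, 5 to 6 in DF, 7 in DP and 0 in Mc.

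Samples were not treated as paired by replicate number, since the replicate differences of 10 pairs of populations correlated at -0.047 to 0.271 and 5 exceeded 0.1. With the replicate block, 14 Hox genes were called for Mc against mesenchyme, 12 against DP, 10 against DF, 10 against epithelium, 7 for DP against DF, 5 for Mx against ORS and 19 for epithelium against mesenchyme, and Hoxc13 passed between Mx and ORS (1.05, adjusted p = 0.0296). With that block the calls lost were Hoxc5 against DP (adjusted p = 0.0513), Hoxa9 against DF (0.0571) and Hoxd8 against epithelium (0.0515). With the fluidics protocol as a block the calls for Hoxa13 (adjusted p = 0.0986) and Hoxd1 (0.0501) between epithelium and mesenchyme and for Hoxa3 between Mc and mesenchyme (0.0547) were lost, and Hoxa13 also with the lot (0.0798). Low signals limit the 16 genes that stayed under 100 on all arrays.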

Other observations

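Beside the 31 members, 3 probe-sets name a pair of Hox genes each and entered no comparison. All stayed under 100 on every array. One shared by Hoxd4 and Hoxd3 had 81.2 and 74.7 in DF, 53.1 and 21.8 in DP, 36.1 and 6.6 in Mx, 3.5 and 4.5 in ORS and 2.7 and 4.4 in Mc. The other shared by them had 46.6 and 46.1 in DF and 15.1 to 25.5 on the remaining 8 arrays. The probe-set shared by Hoxb8 and Hoxb7 had 97.4 and 68.7 in Mx, 55.2 and 39.9 in ORS, 44.2 and 49.9 in DF, 41.4 and 40.2 in DP and 26.0 and 21.6 in Mc. Which gene of a pair gave the signal cannot be told apart.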
